A study of Saccharomyces cerevisiae with 4 samples.

Results

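The genes described here encode the machinery that copies chromosomal DNA in budding yeast, and their messenger RNA levels were compared between cells with and without *SIS2*. They are 44 genes listed by systematic identifier from their function: the origin recognition complex, the loading factors and the Mcm2-7 helicase, the helicase activators, the replicative polymerases with primase, the single-strand binding protein, the sliding clamp with its loader, the flap nuclease and ligase, the large subunit of ribonucleotide reductase, and 3 fork proteins. All 44 were among the 6692 genes of the count table, and all 44 were among the 5959 that reached 0.5 CPM (a gene's counts scaled to the library total) in at least 2 libraries and were tested. BY4741, the wild type, is a haploid MATa strain with the alleles his3Δ1, leu2Δ0, met15Δ0 and ura3Δ0, and the *sis2Δ* strain carried *sis2Δ*::kanMX in that same background. *SIS2* encodes a subunit of an enzyme of coenzyme A synthesis and an inhibitor of the Ppz1 phosphatase. The mutant came from the MATa deletion collection and no other *sis2Δ* isolate was analysed here, so the deletion and any other difference between the strain stocks cannot be told apart. Each strain was represented by 2 independent cultures, A and B, harvested at mid-log phase from 15 ml of synthetic complete medium (2% glucose), and polyadenylated RNA was sequenced.

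Replication begins when the origin recognition complex, Cdc6 and Cdt1 place the ring-shaped Mcm2-7 helicase on origins in G1. In S phase Cdc45 and the GINS complex join the ring to form the active helicase, polymerase alpha-primase starts each strand, and polymerases epsilon and delta extend them on the clamp PCNA. Many of these genes are known to be transcribed periodically. The factor MBF, which binds the promoter element named MCB, drives many of them in late G1, and Mcm1 acts on *CDC6* and the MCM genes between M phase and G1. In unsynchronized cultures, fewer cells in a phase of the cycle and less RNA per cell cannot be told apart.

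Between 19001619 and 28069619 reads were counted on genes per library, and the 44 genes took between 0.274% and 0.307% of them. *SIS2* itself (YKR072C) had 3991 and 2208 counts in wild type A and B and 6 and 9 in *sis2Δ* A and B, so the labels matched the deletion. The deleted markers *URA3* and *MET17* had 0 counts in every library, and *LEU2* had 1 count in *sis2Δ* B only. The a-specific genes were at high level in all 4 libraries, with a summed level of 1652 to 2306 CPM against 44.5 to 80.4 CPM for the alpha-specific genes. Of these markers 3 of 6 a-specific genes and 2 of 3 tested alpha-specific genes were called higher in *sis2Δ* by edgeR and none lower. The a-specific genes called were *MFA1* (log2 fold change 0.90, adjusted p = 6.14e-04) and *MFA2* (0.64, 0.0228), which encode the pheromone a-factor, and *AGA2* (0.96, 2.54e-04), a subunit of the mating adhesin a-agglutinin. The alpha-specific genes called were *MF(ALPHA)1* (1.97, 0.0222), which encodes alpha-factor and had 10 and 13 counts in wild type A and B and 51 and 38 in *sis2Δ* A and B, and *SAG1* (0.89, 6.60e-04), which encodes alpha-agglutinin. Without wild type A the edgeR calls of *MFA2* (adjusted p = 0.206) and *MF(ALPHA)1* (0.0891) were lost, and without *sis2Δ* A that of *MF(ALPHA)1* (0.125). The part of these markers in the values of the replication genes was not tested. In each strain A and B differed by more than counting error (chi-square divided by its degrees of freedom 19.8 in wild type and 58.3 in *sis2Δ*). With 2 libraries against 2, an exact permutation test of a single gene cannot go below a two-sided p of 0.333, so p-values here come from edgeR's quasi-likelihood test fitted across all 5959 genes, adjusted by Benjamini-Hochberg.

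Of the 44 replication genes, 1 passed an adjusted p of 0.05. This was *RNR1*, which rose in *sis2Δ*, while no replication gene fell. Over all genes tested, 362 (6.07%) passed, 162 of them higher (2.72%) and 200 lower (3.36%). The share of replication genes called higher (2.27%) was near that of all genes. With 1 gene called, a difference between the shares cannot be read and was not tested. The number of genes called depended on single libraries. Without wild type A, 2 replication genes (4.55%) and 329 of all genes (5.55%) passed. Without wild type B these were 0 and 194 (3.27%), without *sis2Δ* A 1 and 190 (3.21%), and without *sis2Δ* B 1 and 985 (16.6%). limma-voom and DESeq2 likewise called 1 replication gene higher and 0 lower. At an unadjusted p under 0.05, edgeR placed 8 replication genes higher (18.2%, with 10.6% of all genes) and 0 lower (10.4% of all genes). The 8 were *RNR1*, *CDC6*, *CDC45*, *CTF4*, *POL12*, *ORC2*, *RAD27* and *MRC1*. The libraries of the strains did not overlap for a part of the list, where 13 genes were higher in *sis2Δ* (29.5%, against 24.5% of all genes) and 7 lower (15.9%, against 28.6%).

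The median log2 fold change of the 44 genes, *sis2Δ* over wild type, was 0.036, with 27 genes above 0 and 17 below, and that of all genes tested was -0.0050. The changes were small for most of the list. For 34 of the 44 genes the log2 fold change was smaller than 0.2 in size, and for 36 the 95% interval included 0. The intervals reached a median of 0.26 on either side of the estimate, from 0.22 for *ORC1* to 0.43 for *CDC6*, and for 35 genes the whole interval lay within 0.5 of 0. Changes smaller than these intervals were not resolved by 2 libraries a strain. The summed level of the list was 2847 and 2758 CPM in wild type A and B and 2861 and 2962 CPM in *sis2Δ* A and B.

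**Figure D1:**
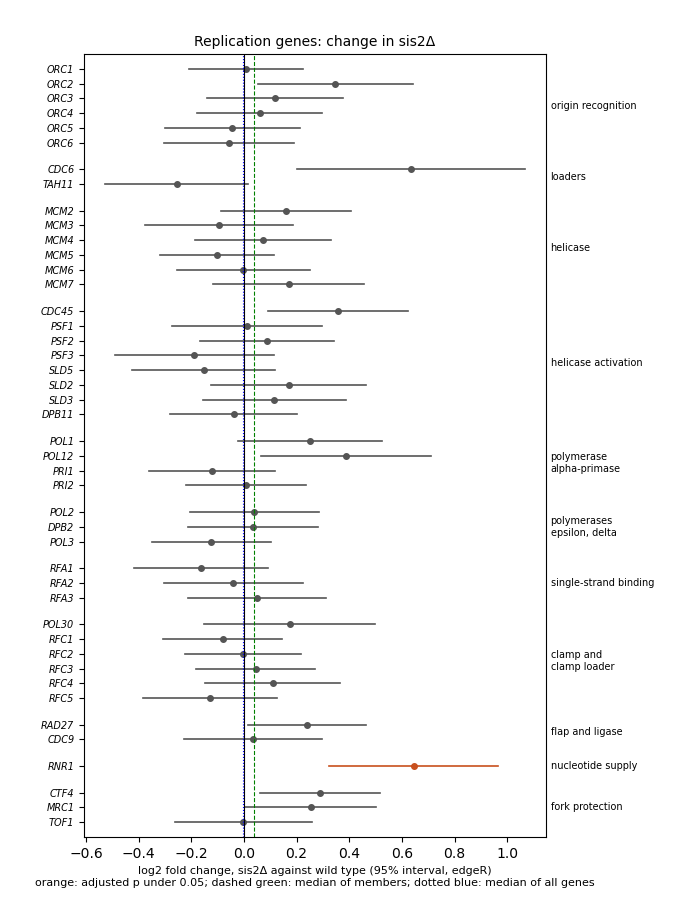
Log2 fold change of each of the 44 replication genes in *sis2Δ* against wild type, with its 95% interval from edgeR (horizontal axis), ordered by role (vertical axis). *RNR1*, in orange, is the only gene with an adjusted p under 0.05, and 36 of the 44 intervals include 0.

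*RNR1* (YER070W, chromosome V, 298950 to 301616, plus strand in the R64 build) encodes the large catalytic subunit of ribonucleotide reductase, which makes the deoxynucleotides for replication. Its level was 87.9 and 67.8 CPM in wild type A and B and 106 and 138 CPM in *sis2Δ* A and B, so both mutant libraries lay above both wild-type libraries. The difference was 1.56-fold (95% interval 1.25 to 1.95; log2 fold change 0.64, SE 0.15, 95% interval 0.32 to 0.96, adjusted p = 0.0231 by edgeR). The call rested on the B libraries. Wild type B was the lowest library and *sis2Δ* B the highest, and without the one the log2 fold change was 0.49 (adjusted p = 0.0741), without the other 0.44 (adjusted p = 0.0628). Without wild type A or *sis2Δ* A it was 0.85 (adjusted p = 3.92e-05) and 0.83 (adjusted p = 0.00888). Across all 12 alternative settings, 10 kept the call.

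The sequence before *RNR1* is shown because it holds a run of MCB elements, ACGCGT, farther from the start codon than the MCB elements of the promoters described later. Positions are counted from -1 at the base before the start codon. No MCB lay within 250 bases of the start, but 4 lay in the 300 bases before that, with first bases at -492, -442, -371 and -306. The window is chrV:298400-298699 on the plus strand of R64 (RefSeq), 5′ to 3′, with the MCB elements in capitals.
RNR1: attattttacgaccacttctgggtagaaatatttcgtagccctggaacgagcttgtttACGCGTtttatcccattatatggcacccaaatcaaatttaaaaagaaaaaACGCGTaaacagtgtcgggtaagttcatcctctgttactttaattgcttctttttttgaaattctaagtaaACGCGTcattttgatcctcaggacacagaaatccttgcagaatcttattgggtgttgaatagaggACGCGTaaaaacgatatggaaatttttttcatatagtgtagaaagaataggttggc

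Other genes of nucleotide supply and the replication checkpoint did not move as one group with *RNR1*. Of 17 listed, 1 rose and 1 fell in the edgeR test (median log2 fold change 0.056). *CDC21* (YOR074C), which encodes thymidylate synthase, was at 36.8 and 33.2 CPM in wild type A and B and 47.6 and 47.1 CPM in *sis2Δ* A and B, with no overlap (log2 fold change 0.43, SE 0.11, 95% interval 0.18 to 0.68, adjusted p = 0.0446). That call was lost without wild type A, wild type B or *sis2Δ* A, with adjusted p = 0.068, 0.335 and 0.106. *HUG1* (YML058W-A), the gene of a small protein that is induced by the checkpoint and restrains ribonucleotide reductase, was at 10.7 and 12.7 CPM in wild type A and B and 3.36 and 4.81 CPM in *sis2Δ* A and B. Both mutant libraries lay far below the wild type (log2 fold change -1.49, SE 0.20, 95% interval -1.93 to -1.06, adjusted p = 7.90e-04), and the call held in all 12 alternatives, with adjusted p from 9.46e-14 to 0.00723.

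The small subunits of the reductase, *RNR2* (YJL026W) and *RNR4* (YGR180C), did not pass the test. *RNR2* was at 753 and 794 CPM in wild type A and B and 542 and 666 CPM in *sis2Δ* A and B (log2 fold change -0.36, interval -0.69 to -0.025, adjusted p = 0.205), and it passed only without *sis2Δ* B (-0.51, adjusted p = 0.0132). *RNR4* was at 687 and 699 CPM in wild type A and B and 642 and 622 CPM in *sis2Δ* A and B (log2 fold change -0.13, interval -0.43 to 0.17, adjusted p = 0.613). In both genes the mutant libraries lay below the wild type, the opposite order to *RNR1*. *RNR3* (YIL066C), the alternative large subunit known to be induced by DNA damage, overlapped between the strains at 14.4 and 11.6 CPM against 10.9 and 12.2 CPM (log2 fold change -0.17, interval -0.51 to 0.17, adjusted p = 0.568). *SML1* (YML058W), a protein inhibitor of Rnr1, was at 207 and 233 CPM against 234 and 234 CPM (adjusted p = 0.683).

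**Figure D2:**
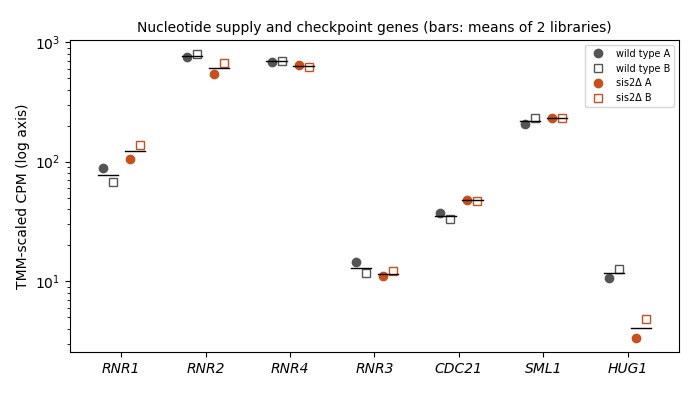
TMM-scaled CPM on a log axis (vertical) of 7 genes of nucleotide supply and the checkpoint (horizontal axis), with 1 point per library (filled circles A, open squares B) and bars at the mean of 2 libraries. *RNR1* and *CDC21* sit higher in *sis2Δ* and *HUG1* lower, while *RNR3* overlaps between the strains.

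The 6 genes of the origin recognition complex, *ORC1* (YML065W), *ORC2* (YBR060C), *ORC3* (YLL004W), *ORC4* (YPR162C), *ORC5* (YNL261W) and *ORC6* (YHR118C), had a median log2 fold change of 0.034. None passed the test. *ORC2* (chromosome II, 360652 to 362514, minus strand) was at 48.4 and 36.6 CPM in wild type A and B and 55.4 and 53.1 CPM in *sis2Δ* A and B, with the mutant libraries above the wild type (log2 fold change 0.35, interval 0.053 to 0.64, adjusted p = 0.163). Its wild-type libraries were unequal. Without wild type A the log2 fold change was 0.57 and passed (adjusted p = 0.0313), and without wild type B it was 0.18 (adjusted p = 0.84). The other 5 subunits had log2 fold changes between -0.058 (*ORC6*) and 0.12 (*ORC3*). *ORC1*, which carries the ATPase site used in loading, was nearly level at 113 and 115 CPM against 113 and 116 CPM (interval -0.21 to 0.23).

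The loading factors *CDC6* and *TAH11*, the gene of Cdt1, lay at opposite ends of the list, and neither passed. *CDC6* (YJL194W, chromosome X, 69338 to 70879, plus strand) was at 3.89 and 3.86 CPM in wild type A and B and 5.45 and 6.56 CPM in *sis2Δ* A and B. Both mutant libraries were above both wild-type libraries (log2 fold change 0.63, interval 0.20 to 1.07, adjusted p = 0.0874), and the wild-type libraries agreed closely. This was the gene with the fewest reads on the list, with 73 to 161 counts per library, and its interval was the widest of the 44. *TAH11* (YJR046W, chromosome X, 522048 to 523862, plus strand) was at 35.0 and 31.7 CPM in wild type A and B and 26.2 and 29.7 CPM in *sis2Δ* A and B, with the mutant libraries below the wild type, and it had the lowest log2 fold change of the list (log2 fold change -0.26, interval -0.53 to 0.017, adjusted p = 0.269).

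*CDC6* and *MCM7* are shown as examples of promoters with matches to the Mcm1 box with its flanking tail (CCNNNNNNGGAAA, on either strand). *CDC6* also holds an MCB. The windows run from -250 to -101, at chrX:69088-69237 and chrII:625522-625671 on the plus strand of R64 (RefSeq), 5′ to 3′. Capitals mark the matches, and matches that overlap or touch run together. In *CDC6* the first capitals are the MCB and the rest are 3 Mcm1 box matches. In *MCM7* all capitals are 3 Mcm1 box matches. The matches with first bases at -193 and -190 in *CDC6* are a single box read on both strands. The same holds for those at -213 and -210 in *MCM7*.
CDC6: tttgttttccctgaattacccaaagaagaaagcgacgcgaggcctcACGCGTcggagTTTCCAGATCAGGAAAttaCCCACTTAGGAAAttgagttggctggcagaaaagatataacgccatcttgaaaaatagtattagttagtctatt
MCM7: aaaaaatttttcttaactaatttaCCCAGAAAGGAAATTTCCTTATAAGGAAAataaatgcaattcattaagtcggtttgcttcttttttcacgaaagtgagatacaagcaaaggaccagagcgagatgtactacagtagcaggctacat

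The 6 helicase genes *MCM2* (YBL023C), *MCM3* (YEL032W), *MCM4* (YPR019W), *MCM5* (YLR274W), *MCM6* (YGL201C) and *MCM7* (YBR202W) did not pass the test in either direction. They split evenly, with 3 above 0 and 3 below and a median log2 fold change of 0.034. *MCM7* had the largest difference of the group. Its level was 63.8 and 48.3 CPM in wild type A and B and 63.2 and 63.2 CPM in *sis2Δ* A and B (log2 fold change 0.17, interval -0.12 to 0.46, adjusted p = 0.487), and the strains overlapped because wild type A was as high as the mutant. *MCM5* lay at the other end, at 122 and 127 CPM against 116 and 116 CPM, with the mutant libraries just below the wild type (interval -0.32 to 0.11).

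The wild-type cultures differed from each other in the helicase genes. In 5 of the 6, wild type B was lower than wild type A, with a median log2 ratio of B to A of -0.30, while the median over all genes tested was 0.0025. *MCM3*, *MCM4* and *MCM7* had ratios of -0.39, -0.32 and -0.40 on the log2 scale, and *MCM5* was the exception at 0.056. The mutant cultures were close to each other, with a median log2 ratio of -0.016. For *MCM3* the sign followed the wild-type library used: the log2 fold change was -0.10 with both and 0.11 without wild type A.

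The helicase activators were *CDC45* (YLR103C), the GINS subunits *PSF1* (YDR013W), *PSF2* (YJL072C), *PSF3* (YOL146W) and *SLD5* (YDR489W), and the assembly factors *SLD2* (YKL108W), *SLD3* (YGL113W) and *DPB11* (YJL090C). None of the 8 passed, and 5 lay above 0. *CDC45* (chromosome XII, 343989 to 345941, minus strand) was at 25.0 and 26.8 CPM in wild type A and B and 34.7 and 31.7 CPM in *sis2Δ* A and B, with no overlap (log2 fold change 0.36, interval 0.092 to 0.62, adjusted p = 0.113). *PSF3* was at 20.8 and 25.6 CPM in wild type A and B and 20.1 and 20.4 CPM in *sis2Δ* A and B (log2 fold change -0.19, interval -0.49 to 0.11, adjusted p = 0.464) and *SLD5* at 23.3 and 22.9 CPM against 20.2 and 21.3 CPM (log2 fold change -0.15, interval -0.43 to 0.12, adjusted p = 0.515). In these GINS genes the mutant libraries were the lower ones (in *PSF3* just below wild type A), whereas *PSF1* overlapped (0.012) and *PSF2* lay slightly above (0.087). *SLD2*, *SLD3* and *DPB11*, which join in a complex that recruits GINS, overlapped between the strains, with log2 fold changes of 0.17, 0.12 and -0.039.

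Polymerase alpha-primase makes the short RNA-DNA primers of each new strand. None of its 4 genes passed, the polymerase subunits lying above 0 and the primase subunits near or below it. *POL12* (YBL035C, chromosome II, 151493 to 153610, minus strand), the second subunit of the polymerase, was at 20.3 and 15.9 CPM in wild type A and B and 22.1 and 25.4 CPM in *sis2Δ* A and B, with the mutant libraries above the wild type (log2 fold change 0.39, interval 0.064 to 0.71, adjusted p = 0.158). *POL1* (YNL102W), the catalytic subunit, was at 65.9 and 52.4 CPM against 67.6 and 73.5 CPM (log2 fold change 0.25, interval -0.021 to 0.52, adjusted p = 0.276). The primase genes *PRI1* (YIR008C) and *PRI2* (YKL045W) had log2 fold changes of -0.12 and 0.0087, and in *PRI1* the mutant libraries were the lower ones. *POL1* and *POL12* also shared a low wild type B, with log2 ratios of B to A of -0.33 and -0.35, which the primase genes did not have (-0.033 and 0.067).

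The genes of polymerase epsilon, *POL2* (YNL262W) and *DPB2* (YPR175W), and of polymerase delta, *POL3* (YDL102W), which copy the leading and the lagging strand, were near 0, with log2 fold changes of 0.039, 0.034 and -0.12. *POL3* was at 91.0 and 91.2 CPM in wild type A and B and 79.6 and 87.5 CPM in *sis2Δ* A and B, with the mutant libraries below the wild type (log2 fold change -0.12, interval -0.35 to 0.10, adjusted p = 0.528). *POL2* lies 219 bases before *ORC5* on the same strand of chromosome XIV, and both overlapped between the strains.

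The single-strand binding protein RPA is encoded by *RFA1* (YAR007C), *RFA2* (YNL312W) and *RFA3* (YJL173C), and none of these passed. *RFA1* was at 116 and 132 CPM in wild type A and B and 101 and 120.2 CPM in *sis2Δ* A and B, overlapping between the strains (log2 fold change -0.16, interval -0.42 to 0.093, adjusted p = 0.456), and *RFA2* (-0.04) and *RFA3* (0.048) were closer to 0. In all 3 genes *sis2Δ* B was above *sis2Δ* A, with a median log2 ratio of 0.24.

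*POL30* (YBR088C), the gene of the sliding clamp PCNA, showed the widest gap between libraries of 1 strain on the list. It was at 51.8 and 60.2 CPM in wild type A and B and 52.5 and 73.4 CPM in *sis2Δ* A and B. Only *sis2Δ* B stood out, at a log2 ratio of 0.48 to *sis2Δ* A, and the strains overlapped (log2 fold change 0.17, interval -0.15 to 0.50, adjusted p = 0.536). Without *sis2Δ* B the log2 fold change was -0.088.

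The clamp is loaded by RFC, and its genes *RFC1* (YOR217W), *RFC2* (YJR068W), *RFC3* (YNL290W), *RFC4* (YOL094C) and *RFC5* (YBR087W) had log2 fold changes between -0.13 (*RFC5*) and 0.11 (*RFC4*), with no call. *RFC5* was at 64.6 and 68.6 CPM in wild type A and B and 55.4 and 66.2 CPM in *sis2Δ* A and B (log2 fold change -0.13, interval -0.38 to 0.13, adjusted p = 0.563), the low value being *sis2Δ* A. *RFC5* and *POL30* are convergent neighbours on chromosome II, 160 bases apart, and both had *sis2Δ* B above *sis2Δ* A. That order was common on the list, where *sis2Δ* B was below *sis2Δ* A for only 17 of the 44 genes.

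*RAD27* (YKL113C), the nuclease that trims the flaps of lagging-strand fragments, was at 90.6 and 94.8 CPM in wild type A and B and 114 and 105 CPM in *sis2Δ* A and B, with the mutant libraries above the wild type (log2 fold change 0.24, interval 0.015 to 0.46, adjusted p = 0.210). *CDC9* (YDL164C), the ligase that seals those fragments, overlapped at 59.4 and 52.4 CPM against 52.8 and 61.7 CPM (log2 fold change 0.034). Of the fork proteins, *CTF4* (YPR135W), which tethers polymerase alpha to the helicase, was at 60.6 and 57.0 CPM in wild type A and B and 71.9 and 71.9 CPM in *sis2Δ* A and B (log2 fold change 0.29, interval 0.061 to 0.52, adjusted p = 0.135). Its mutant libraries were nearly identical and above the wild type.

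*MRC1* (YCL061C), which relays the checkpoint signal at stalled forks, was at 82.5 and 86.5 CPM in wild type A and B and 110.0 and 91.4 CPM in *sis2Δ* A and B (log2 fold change 0.25, interval 0.004 to 0.50, adjusted p = 0.232). The mutant libraries were again the higher ones, *sis2Δ* A most of all, and the gene passed in the fit without *sis2Δ* B (0.38, adjusted p = 0.0396). *TOF1* (YNL273W), which acts with Mrc1 in pausing forks, overlapped at 41.3 and 39.1 CPM against 37.3 and 43.0 CPM (-0.0027, interval -0.26 to 0.26).

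The sequences before *CDC45*, *POL12*, *RAD27*, *CTF4* and *MRC1* were chosen by outcome. Beside *CDC6*, these 5 genes held an MCB within 250 bases and were higher at an unadjusted p under 0.05 by edgeR. They come from 19 genes with an MCB, of which 14 lay above 0 and 5 below. At that p, 10.6% of all genes tested were higher. A link between the MCB and the change was not tested. Each window runs from -250 to -101, 5′ to 3′, with the MCB in capitals. In R64 (RefSeq) they are chrXII:346042-346191, chrII:153711-153860, chrXI:225976-226125 and chrIII:22207-22356 on the minus strand and chrXVI:798984-799133 on the plus strand.
CDC45: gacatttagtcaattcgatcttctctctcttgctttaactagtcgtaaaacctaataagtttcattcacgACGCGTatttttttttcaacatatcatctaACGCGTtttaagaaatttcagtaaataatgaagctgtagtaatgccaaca
POL12: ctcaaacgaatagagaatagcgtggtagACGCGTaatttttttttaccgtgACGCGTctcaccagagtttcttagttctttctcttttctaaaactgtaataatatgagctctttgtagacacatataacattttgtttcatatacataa
RAD27: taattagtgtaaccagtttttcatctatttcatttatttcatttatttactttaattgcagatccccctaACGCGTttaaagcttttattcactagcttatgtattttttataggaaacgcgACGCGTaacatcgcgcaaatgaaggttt
CTF4: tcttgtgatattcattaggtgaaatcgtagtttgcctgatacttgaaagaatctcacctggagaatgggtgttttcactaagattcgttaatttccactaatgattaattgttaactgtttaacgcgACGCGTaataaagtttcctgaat
MRC1: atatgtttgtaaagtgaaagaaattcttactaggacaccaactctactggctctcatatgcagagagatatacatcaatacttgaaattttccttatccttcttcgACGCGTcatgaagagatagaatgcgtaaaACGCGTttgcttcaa

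Across the whole list, an MCB (ACGCGT, a palindrome, so both strands are the same) lay between -250 and the first 50 bases of the coding sequence in 19 of the 44 genes (43.2%), against 184 of 6001 protein-coding genes (3.07%). The classes were set from textbook knowledge of when the genes are transcribed, so a match of class and motif is not an independent result. The late G1 class was *POL1*, *POL12*, *PRI1*, *PRI2*, *POL2*, *DPB2*, *POL3*, *POL30*, *CDC9*, *RFA1*, *RFA2*, *RFA3*, *RNR1*, *RAD27*, *CDC45* and *MRC1*. Of these 16 genes, 13 held an MCB. The 7 genes of the M/G1 class, *CDC6* and the MCM genes, held an MCB in 1 case (*CDC6*) and the Mcm1 box with tail in 5 (71.4%, against 3.82% of all promoters), those of *CDC6*, *MCM3*, *MCM5*, *MCM6* and *MCM7*. The SBF element SCB (CGCGAAA, either strand) lay in 5 genes (11.4%, against 3.6%), those of *MCM5*, *PSF1*, *DPB2*, *POL30* and *CDC9*. In *POL30* it overlapped the MCB by a base. These are matches of letters and not measured binding.

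The 19 genes with an MCB had a median log2 fold change of 0.11, with 14 above 0, and the 25 without had 0.0086, with 13 above 0. *RNR1* and *ORC2* are among the 25, *RNR1* because its elements lie outside this window. By class, the medians were 0.044 for late G1, 0.071 for M/G1 and 0.0086 for the 21 unclassed genes. No test was made of the differences between these medians. With the window extended to 550 bases before the start codon, chosen after seeing that *RNR1* had no match, 22 of the 44 genes held an MCB, against 357 of 6000 genes (5.95%).

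**Figure D3:**
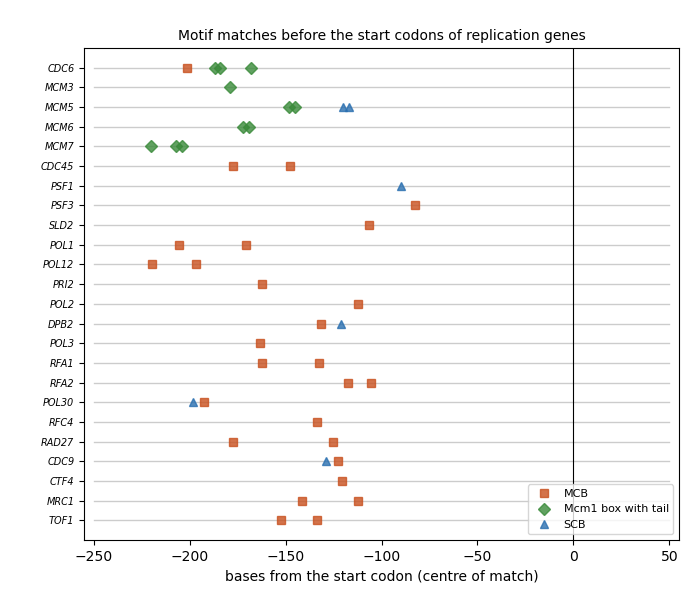
Position of matches to the MCB, SCB and Mcm1 box in bases from the start codon (horizontal axis), for the 24 replication genes with any match (vertical axis). The MCB matches fall before the start codon in all 19 genes that hold one, and the Mcm1 box matches are in *CDC6* and 4 of the MCM genes.

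The libraries of one strain did not move as a block across the list. Wild type B was below wild type A for 21 of the 44 genes and *sis2Δ* B below *sis2Δ* A for 17. By its medians the M/G1 class was uneven in the wild type and level in the mutant. Wild type B was lower for 6 of 7 genes (median log2 ratio -0.27), and the mutant median was 0.00022. *CDC6* differed from these medians, with log2 ratios of -0.011 in the wild type and 0.27 in the mutant. The late G1 class was uneven in the mutant, with *sis2Δ* B lower for 4 of 16 genes and a median log2 ratio of 0.16, while the wild-type median was 0.013. *RNR1* carried both kinds of gap, at -0.37 in the wild type and 0.39 in the mutant. The part of these culture differences in the strain comparison was not tested.

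**Figure D4:**
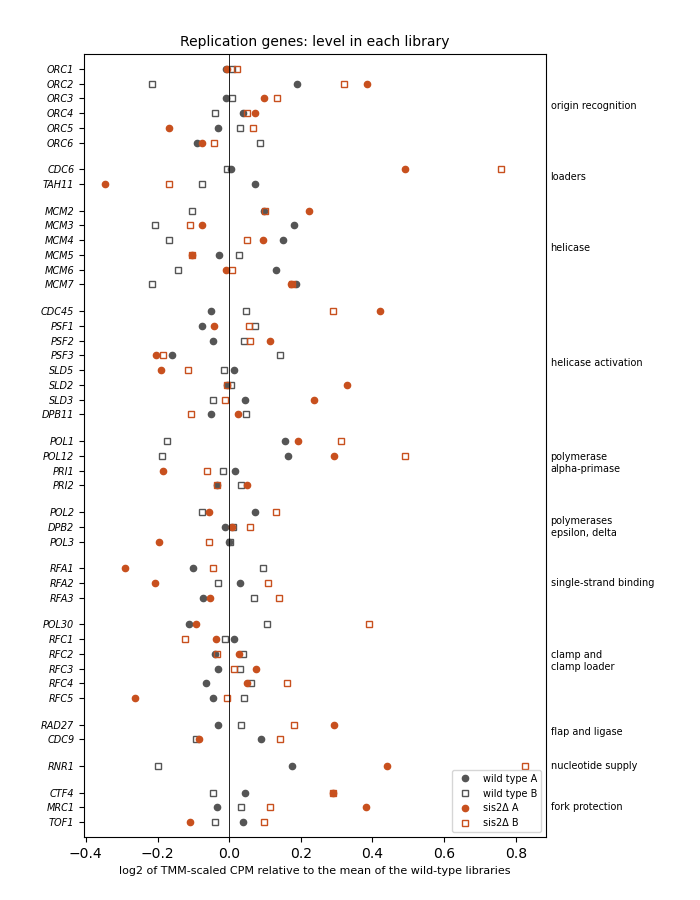
Level of each of the 44 replication genes in each library (filled circles A, open squares B, grey wild type, orange *sis2Δ*), as log2 of CPM relative to the wild-type mean (horizontal axis), ordered by role (vertical axis). Both mutant libraries lie above both wild-type libraries for 13 genes, *RNR1* and *CDC6* among them, and below for 7. For 5 of the 6 MCM genes wild type B is lower than wild type A.

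Subunits that work in one complex were not at equal RNA level. Levels between genes are given as CPM per kilobase of coding length, mean ± SD of 2 wild-type libraries. Among the helicase genes *MCM5* was highest (53.5 ± 1.48), then *MCM4* (36.0 ± 5.58), and *MCM6*, *MCM3*, *MCM2* and *MCM7* lay between 22.1 and 24.1 and did not differ beyond their spread. In the origin recognition complex *ORC1* (41.5 ± 0.380) led, *ORC6* (37.6 ± 3.25) and *ORC5* (34.9 ± 1.06) did not differ beyond their spread, and *ORC3* was lowest (14.3 ± 0.109). In polymerase alpha-primase the primase genes *PRI2* (45.5 ± 1.50) and *PRI1* (44.2 ± 0.707) were well above *POL1* (13.4 ± 2.17) and *POL12* (8.54 ± 1.47).

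The highest of the 44 per length was *RFA3* (113 ± 7.91), which did not differ from *RFC2* (105 ± 4.10) beyond the spread, and the lowest was *CDC6* (2.52 ± 0.0137). Within RFC the lowest was *RFC4* (37.7 ± 2.32). The order was kept in *sis2Δ* at both ends, with *RFA3* at 116 ± 11.0 and *CDC6* at 3.89 ± 0.510. *RNR1* was at 29.2 ± 5.33 in the wild type and 45.7 ± 8.58 in *sis2Δ*, far below its partner subunits *RNR2* (644 ± 24.4) and *RNR4* (668 ± 8.48) in the wild type. Coding length leaves out untranslated ends, which weigh most in short genes such as *RFA3* (369 bases).

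**Figure D5:**
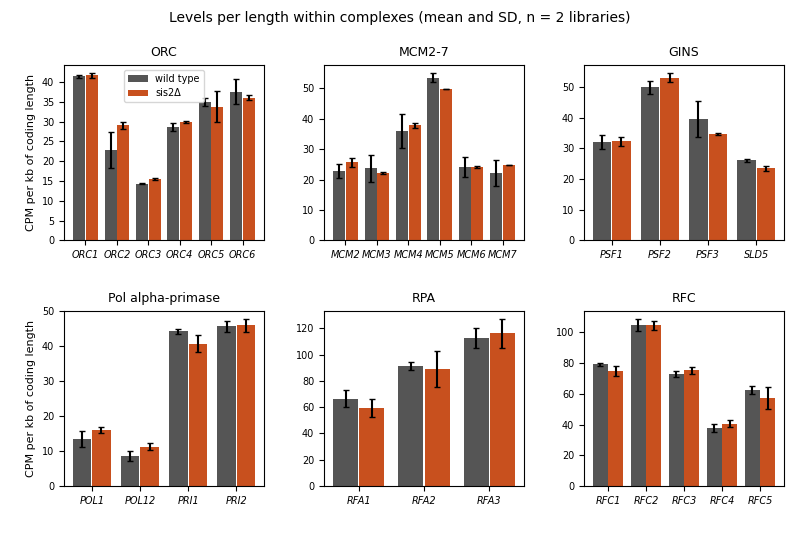
CPM per kilobase of coding length (vertical axis) for the subunit genes of 6 replication complexes, wild type in grey and *sis2Δ* in orange, as mean and SD of 2 libraries. *MCM5* stands above the other MCM genes and the primase genes above *POL1* and *POL12* in both strains.

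None of the listed replication genes outside the 44 passed. Of 27 such genes, among them *DBF4*, *TOP2* and the polymerase accessory subunits, edgeR, limma-voom and DESeq2 each called 0 (median log2 fold change 0.070). At an unadjusted p under 0.05 edgeR placed 3 higher (10.6% of all genes) and 1 lower (10.4% of all genes). The 8 S-phase histone genes, which are expressed as DNA is copied, had 0 calls by all 3 tools and 0 at an unadjusted p under 0.05 (median -0.0013). The summed histone level was 5796 and 6243 CPM in wild type A and B and 5890 and 6215 CPM in *sis2Δ* A and B, which overlapped.

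Of 13 listed cell-cycle transcription regulators, not all of which act on the replication genes, 3 rose and 0 fell in the edgeR test. All 13 lay above 0, with a median log2 fold change of 0.31. At an unadjusted p under 0.05 edgeR placed 8 higher (10.6% of all genes) and 0 lower (10.4% of all genes). *MCM1* (YMR043W) was at 87.8 and 78.3 CPM in wild type A and B and 168 and 105 CPM in *sis2Δ* A and B (log2 fold change 0.71, interval 0.34 to 1.09, adjusted p = 0.0297), with *sis2Δ* A far above the other 3, and without that library the log2 fold change was 0.35 (adjusted p = 0.156). *YOX1* (YML027W), a repressor that binds beside Mcm1 at M/G1 promoters, was at 3.45 and 2.28 CPM in wild type A and B and 6.08 and 6.72 CPM in *sis2Δ* A and B (log2 fold change 1.13, interval 0.63 to 1.62, adjusted p = 0.0125) and was called in all 12 alternatives. *NDD1* (YOR372C), an activator of G2/M genes, was at 71.0 and 58.1 CPM against 111 and 80.3 CPM (log2 fold change 0.57, interval 0.24 to 0.89, adjusted p = 0.0456), a call lost without *sis2Δ* A (0.32, adjusted p = 0.269) and without wild type B (0.45, adjusted p = 0.122). *MBP1* (YDL056W), the DNA-binding subunit of MBF, was at 97.7 and 91.1 CPM against 124 and 109.9 CPM and did not pass (log2 fold change 0.31, interval 0.076 to 0.55, adjusted p = 0.119), although it passed without *sis2Δ* B (0.40, adjusted p = 0.0344). Its partner *SWI6* (0.022) and the SBF subunit *SWI4* (0.063) overlapped between the strains.

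Among late G1 genes outside replication, 7 of 14 listed rose (median log2 fold change 0.47). Of the 16 late G1 replication genes 1 rose and 0 fell, and 2.72% of all genes tested were called higher. Both lists were chosen with earlier results of these data known, so their shares cannot be set against each other. The difference between the lists was not tested. The largest rises were *PCL1* (1.33, adjusted p = 5.32e-04), *CLN2* (0.69, 0.00860), *SVS1* (0.66, 0.0201), *PCL2* (0.61, 0.0208), *MCD1* (0.53, 0.0222) and *MNN1* (0.51, 0.0147), all by edgeR. *PCL1* and *CLN2* were called in every alternative, whereas the other 4 each lost the call in at least 1 fit that left out a library.

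Genes of other cycle phases and of slow growth were read beside the replication genes. In the list of late M and early G1 daughter genes, 2 of 9 rose, *CTS1* (0.87, adjusted p = 0.0271) and *EGT2* (0.54, 0.0456), and all 9 lay above 0. Both of those edgeR calls were lost without wild type B (adjusted p = 0.526 and 0.415), that of *CTS1* also without wild type A (0.276) and that of *EGT2* without *sis2Δ* A (0.156). The 10 genes of the G2/M cluster had 0 calls by all 3 tools and a median log2 fold change of 0.31. At an unadjusted p under 0.05 edgeR placed 6 of them higher, against 10.6% of all genes tested. Of 10 stress genes, 2 rose, *CTT1* (0.98, adjusted p = 4.51e-04) and *SSA4* (0.46, 0.0179), the latter lost without either wild-type library (0.0752 and 0.0934), and the summed level of the list overlapped between the strains (8240 to 8830 CPM in wild type and 8505 to 9338 CPM in *sis2Δ*). The part of cycle phase or growth rate in the values of the replication genes was not tested.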

How the data were processed

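Polyadenylated RNA of 4 yeast cultures was sequenced as stranded libraries. The authors trimmed reads with Cutadapt 3.7, mapped them to R64 with STAR 2.7.8a, and counted them per gene as reverse-stranded with featureCounts 2.0.1. They deposited raw counts for 6692 genes, the only values used here. The gene annotation and the handling of reads mapping to several places are not given in the sources used here. No 100-base window of the 44 genes occurs elsewhere in R64. A second deposited table holds the authors' limma-voom (limma 3.48.0) fold changes and p-values and was not used.

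Strain and letter came from the labels. A Greek letter at the end of one *sis2Δ* label was read as B. The 5959 genes with 0.5 CPM or more in 2 or more libraries were tested with the quasi-likelihood test of edgeR 4.0.16 (R 4.3.3) after TMM scaling, and p-values were adjusted by Benjamini-Hochberg, with a threshold of 0.05. Levels are TMM-scaled CPM. The smallest level taken as measured, 3 counts, was 0.107 to 0.158 CPM. This floor covers counting error only, as the reads carry no molecular identifiers.

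The genes and lists were chosen with earlier results of these data known. All 44 genes are named. Library values are given for *SIS2*, for genes with p under 0.05 before or after adjustment, the 5 largest rises and falls, the largest change in each role group and the widest gap between libraries of 1 strain. Of other lists, called genes are named, at most 6 a list, and 1 gene is not reported here. Alternatives were limma-voom (limma 3.58.1), DESeq2 1.42.0, median-ratio factors, library size alone, at least 1 count in 1 library, at least 10 counts in every library, the legacy fit, the replicate letter as a block, and each library left out, where the lone library of a strain is assumed to vary like the other strain. Fits were tested on simulated counts. Symbols, coordinates and sequences are from RefSeq R64 (5683 of the tested genes matched). Promoters, 250 bases before and 50 after the start codon, were cut from the genome.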

Additional observations from a re-analysis of the deposited data

How the results depend on the processing

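The count of replication genes called stayed at 1 (*RNR1*) in 7 of the 8 alternatives that keep all 4 libraries, and leaving out 1 library gave 0 to 2, with 190 to 985 genes called in all (3.21% to 16.6%). The replicate letters were not taken as pairs, since the cultures were independent and deviations of same-letter libraries correlated at 0.086 over all genes and -0.0084 over the 44. The fit with the replicate block called 5 of the 44 (*ORC2*, *CDC6*, *CDC45*, *POL12* and *RNR1*, all higher), 33 genes of the other lists and 788 genes in all (13.2%), and the cause was not tested. The median log2 fold change of the 44 was 0.088 with library size alone (0.049 over all genes), 0.054 with the 1-count filter, and 0.018 to 0.070 without 1 library. Calls in the other lists, the mating-type and deleted markers apart, were 17 in the main test and 8 to 33 without 1 library. Among other genes named, the call of *CDC21* was lost with library size alone (adjusted p = 0.0556) and with the 1-count filter (0.0503), that of *NDD1* with the 1-count filter (0.0640) and limma-voom (0.0519), and that of *EGT2* with the 1-count filter (0.0574) and edgeR's legacy fit (0.0507). *SIS2* was not tested where wild-type libraries were left out or 10 counts were required in every library. With 2 libraries a strain, changes smaller than a log2 of about 0.26 were mostly not resolved.

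Of the 44 log2 fold changes, 26 kept their sign in all 12 alternatives and 18, the largest at 0.17 in size, did not. *MCM6*, *RFC2* and *TOF1* were 0.012, 0.011 and 0.011 with median-ratio factors, 0.015, 0.015 and 0.015 with the 1-count filter, 0.012, 0.011 and 0.011 with DESeq2 and 0.052, 0.052 and 0.046 with library size alone. With library size alone *ORC5*, *DPB11* and *RFA2* were 0.0030, 0.017 and 0.0066. *MCM6* was 0.0030 with limma-voom and 0.0045 with the replicate block. The cause of these sign changes was not tested. Without 1 library in turn the ranges were -0.0047 to 0.039 for *ORC1*, -0.17 to 0.078 for *ORC5*, -0.15 to 0.052 for *ORC6*, -0.25 to 0.11 for *MCM3*, -0.056 to 0.24 for *MCM4*, -0.11 to 0.14 for *MCM6*, -0.064 to 0.11 for *PSF1*, -0.00098 to 0.24 for *SLD3*, -0.094 to 0.031 for *DPB11*, -0.025 to 0.063 for *PRI2*, -0.057 to 0.14 for *POL2*, -0.21 to 0.12 for *RFA2*, -0.051 to 0.15 for *RFA3*, -0.088 to 0.41 for *POL30*, -0.043 to 0.059 for *RFC2*, -0.26 to 0.0057 for *RFC5*, -0.085 to 0.15 for *CDC9*, -0.11 to 0.11 for *TOF1*, -0.29 to 1.31e-05 for *RNR3*, -0.059 to 0.11 for *SWI6* and -0.058 to 0.19 for *SWI4*.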
